A study of Mus musculus with 4 samples.

Results

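The genes described here are 40 genes of the mitotic spindle, the centrosome and cytokinesis, listed by the known function of their proteins, measured in regulatory T cells (Treg) of mice whose death receptor 3 (DR3) had been stimulated with an agonistic antibody. A gene was represented by the probe set that carried its symbol and no other, and by the brightest of these where there were several. Such a probe set was present for 39 of the 40 genes, each with 1 probe set, among 22180 genes in all. The expression of Haus3 is not analysed here, and this gene enters only the promoter counts. Of the 39, 37 were among the 12114 genes bright enough to be tested, and Nek2 and Pbk were below the filter.

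Mouse Treg were obtained by flow sorting for CD4, Foxp3 and a green fluorescent protein, 4 days after an intraperitoneal dose of either anti-DR3 or an isotype control antibody. All mice were of the strain given as Foxp3Luci-DTR-4(B6 Albino), so both groups carry that allele. The labels give no age or sex. There were 2 arrays per group, 4 in all. Whether a replicate is 1 mouse, a pool of mice or a repeat of the same RNA is not stated, so the p-values cover the spread among these arrays alone, and that spread may be technical. DR3, the product of Tnfrsf25, is a costimulatory receptor of the tumour necrosis factor receptor superfamily, and Treg are T cells that restrain immune responses.

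When a cell divides, its pair of centrosomes nucleates microtubules that form a bipolar spindle. Aurora and Polo-like kinases drive centrosome maturation and spindle assembly, the augmin complex seeds new microtubules on existing ones, and proteins of the central spindle then direct the contractile ring that separates the daughter cells. Transcripts of many spindle and cytokinesis proteins accumulate late in the cell cycle, whereas several centrosome and augmin proteins also serve microtubule organization outside mitosis.

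The promoters of many late cell cycle genes hold a cell cycle genes homology region, with the letters TTTGAA or TTTAAA, and CCAAT boxes. These letters were therefore searched on both strands in the RefSeq promoter windows of GRCm38.p6, which run from 250 bases before to 50 bases after a gene's start and are 300 bases long. TTTAAA is its own reverse complement, TTTGAA reads TTCAAA and CCAAT reads ATTGG on the other strand, and among the members 0 matches of different motifs overlapped. A gene with several windows was counted when any of them held the letters. Of the 40 genes, 33 had a window. The 100 bases before the start are shown for 3 genes that rose after anti-DR3 and hold both kinds of element there (Plk1, Prc1 and Ckap2l), for Nusap1, which rose most and holds neither, and for Aurka, Fam83d and Haus6, which did not pass the test. These genes were picked after their values were seen. Each runs 5′ to 3′ on the gene's strand, and capitals mark the matches.
Plk1, chr7:122159335-122159434, plus strand: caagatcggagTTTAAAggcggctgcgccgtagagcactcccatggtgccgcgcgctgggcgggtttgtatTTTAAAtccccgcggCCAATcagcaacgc
Prc1, chr7:80294376-80294475, plus strand: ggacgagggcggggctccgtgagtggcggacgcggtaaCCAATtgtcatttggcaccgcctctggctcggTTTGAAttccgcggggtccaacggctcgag
Ckap2l, chr2:129297213-129297312, minus strand: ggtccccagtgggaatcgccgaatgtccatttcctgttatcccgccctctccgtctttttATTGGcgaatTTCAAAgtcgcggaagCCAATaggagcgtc
Nusap1, chr2:119618198-119618297, plus strand: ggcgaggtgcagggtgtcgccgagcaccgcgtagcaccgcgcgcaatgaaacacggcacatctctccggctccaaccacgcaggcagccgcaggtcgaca
Aurka, chr2:172370571-172370670, minus strand: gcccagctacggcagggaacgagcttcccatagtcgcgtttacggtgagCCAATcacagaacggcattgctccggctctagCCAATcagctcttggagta
Fam83d, chr2:158767999-158768098, plus strand: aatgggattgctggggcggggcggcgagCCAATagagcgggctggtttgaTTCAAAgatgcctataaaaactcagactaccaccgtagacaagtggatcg
Haus6, chr4:86612056-86612155, minus strand: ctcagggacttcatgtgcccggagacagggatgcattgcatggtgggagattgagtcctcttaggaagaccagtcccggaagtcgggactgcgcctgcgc

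TTTGAA was present in the window of 11 of the 15 genes that rose and have a window (73.3%), and of 5 of the 16 tested genes that did not pass (31.2%). The same letters were present in 14.1% of the 9479 genes tested that have a window and in 20.2% of all 27025 genes with a window. TTTAAA went the other way, in 3 of the 15 and 4 of the 16, against 10.5% of genes tested. Either form was present in 12 of the 15 and 6 of the 16, against 2083 of the 9479 genes tested. CCAAT was present in 10 of the 15 genes that rose (66.7%) and in 7 of the 16 that did not pass (43.8%), against 41.7% of genes tested and 41.1% of all genes. A CCAAT box together with TTTGAA or TTTAAA was present in 10 of the 15 (66.7%) and 3 of the 16 (18.8%), against 8.71% of genes tested. By role, TTTGAA was found in 5 of 6 central spindle and cytokinesis genes, 7 of 11 spindle microtubule genes, 2 of 4 kinase genes, 2 of 6 centriole genes and 0 of 6 augmin genes. Either form was found in 5 of 6 central spindle and cytokinesis genes, 7 of 11 spindle microtubule genes, 2 of 4 kinase genes, 4 of 6 centriole genes and 0 of 6 augmin genes, so with TTTAAA counted the centriole genes were not behind the spindle microtubule and kinase genes. Aurka, Fam83d and Ckap5 held TTTGAA and CCAAT without passing the test of expression. For Aurka, TTTGAA lay 32 bases after the start, outside the stretch shown. For Haus6, a CCAAT box began 141 bases before the start, likewise outside it. These shares describe letters in a window and were not tested. They leave out Tpx2, Bora, Pbk, Cep192, Tubg1, Dlgap5 and Haus1. The 6 augmin genes counted here thus include Haus3 and lack Haus1, while the 6 measured for expression include Haus1 and lack Haus3.

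After anti-DR3, 16 of the 37 genes tested rose and 0 fell, and 21 did not pass an adjusted p of 0.05 in limma, a linear model fitted across all genes with Benjamini-Hochberg adjustment. The genes that rose include those of a kinase of mitotic entry (Plk1), an activator of Aurora A on the spindle (Tpx2) and a spindle-bundling protein (Nusap1). They also include most of the central spindle and contractile ring set (Prc1, Racgap1, Ect2, Anln, Cep55). The 16 genes rose by 1.55- to 2.60-fold. Of the genes of centriole duplication and the pericentriolar material 1 of 8 rose (Stil), and of augmin 0 of 6. Over all 12114 genes tested, 4.49% were called higher and 1.47% lower, 5.96% in all, beside 43.2% called higher of the members tested. Nothing is read from the full share, since 6 of the 16 had to be higher to be tested at all (Nusap1, Hmmr, Aspm, Ckap2l, Cep55 and Anln were above the filter on dim genes only on the anti-DR3 arrays). Among the 27 members above the filter on all 4 arrays 7 rose (25.9%), which were Tpx2, Plk1, Melk, Tacc3, Prc1, Ect2 and Racgap1, against 4.43% of the 10821 such genes over the whole array. The list was drawn up with earlier results of these data known, which limits what these shares show.

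The groups did not overlap, with both anti-DR3 arrays above both control arrays, for 25 of the 37 genes, against 31.6% of all genes tested. They were separated in the other direction for 5 of the 37, against 24.6%, which makes 56.1% of all genes tested with groups that did not overlap in either direction. At an unadjusted p of 0.05, 24 members were higher and 1 lower in limma, against 16.6% and 9.57% of all genes tested, 26.1% in all. The median difference over the 37 was 0.35 on the log2 scale, against 0.01 over all genes tested, and it was 0.34 over the 39 measured. The standard errors of the members (median 0.095) were close to those of all genes (median 0.092). Cit was the other gene of 7 in all that passed the filter only through the anti-DR3 arrays, and it was not called. All 7 are among the 25 separated genes, the 24 higher genes and the 37 of the median. They nearly had to be higher to be tested, so nothing is read from these shares or from that median.

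The calls depended on single arrays. Limma called 3 members without anti-DR3 replicate 1 (Tpx2, Nusap1 and Cep55), 0 without anti-DR3 replicate 2, 6 when control antibody replicate 1 was left out and 13 when replicate 2 of that group was. In the fit with 0 calls, the median difference over the 37 members was 0.36, against 0.02 over all genes tested. Of the 37, 7 had passed the filter only through the anti-DR3 arrays, so nothing is read from that median. Over these fits and the other alternatives the differences of the 16 genes ranged from 0.56 (Spag5) to 1.42 (Nusap1). RNA was taken from sorted cells in bulk, so a larger share of cells in mitosis and more of these transcripts per cell cannot be told apart.

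**Figure D1:**
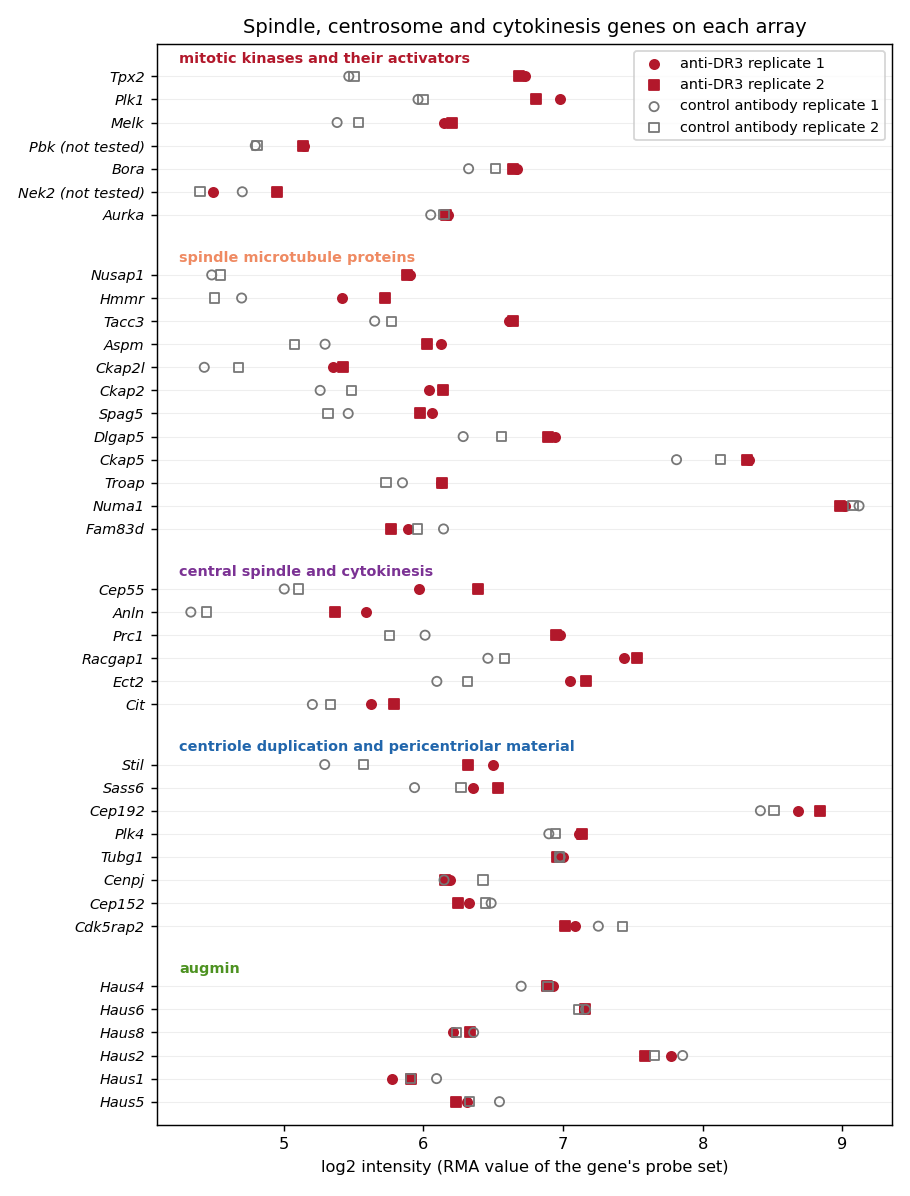
Log2 intensity of the 39 measured genes on each array, with 1 row per gene, grouped by role and ordered by difference; filled red symbols are anti-DR3, open grey symbols control antibody, circles replicate 1 and squares replicate 2. The red and grey symbols are apart for the 5 central spindle and cytokinesis genes that rose and intermingle for most augmin genes.

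Among the 7 kinases and their activators, 3 of the 5 tested rose, 0 fell and 2 missed the threshold, and the median difference was 0.72. Tpx2, which carries Aurora A to spindle microtubules and switches it on, had log2 intensities of 6.73 and 6.68 on the anti-DR3 arrays and of 5.47 and 5.50 on the control arrays. The replicates of each group were close together, and the groups were far apart. It rose 2.33-fold (1.22 ± 0.078 in log2 units, SE, n = 2 arrays in each group; adjusted p = 0.00626, limma) and ranked 37 of 12114 from the largest rise. Aurka, the gene of Aurora A itself, lay at 6.17 and 6.16 on the anti-DR3 arrays and at 6.05 and 6.15 on the control arrays. Its arrays were given here because of the contrast with Tpx2, which was picked after the values were seen. The difference of Aurka was 0.07 ± 0.081 (adjusted p = 0.656, limma), with a 95% interval from -0.13 to 0.27, which ends below the interval of Tpx2 from 1.03 to 1.41. The difference between the genes was not itself tested.

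Plk1, the Polo-like kinase of mitotic entry, centrosome maturation and cytokinesis, had log2 intensities of 6.98 and 6.80 on the anti-DR3 arrays and 5.96 and 5.997 on the control arrays. It rose 1.88-fold (0.91 ± 0.092, adjusted p = 0.0106, limma). Bora, the cofactor through which Aurora A activates Plk1, lay at 6.67 and 6.64 against 6.32 and 6.52. Its groups did not overlap, but the control arrays differed from each other by more than the gap between the groups, and the difference of 0.24 ± 0.095 did not pass (adjusted p = 0.190, limma).

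Melk, a kinase of proliferating cells, had log2 intensities of 6.15 and 6.20 on the anti-DR3 arrays and 5.38 and 5.53 on the control arrays, and rose 1.65-fold (0.72 ± 0.089, adjusted p = 0.0157, limma). Pbk, a mitotic protein kinase, was under the median of every array and not tested. It lay at 5.14 and 5.14 on the anti-DR3 arrays and at 4.80 and 4.81 on the control arrays, so its groups did not overlap, with a difference of 0.34. Nek2, the kinase that releases the linker between centrosomes, was likewise not tested, at 4.49 and 4.95 against 4.70 and 4.40. Its groups overlapped.

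**Figure D2:**
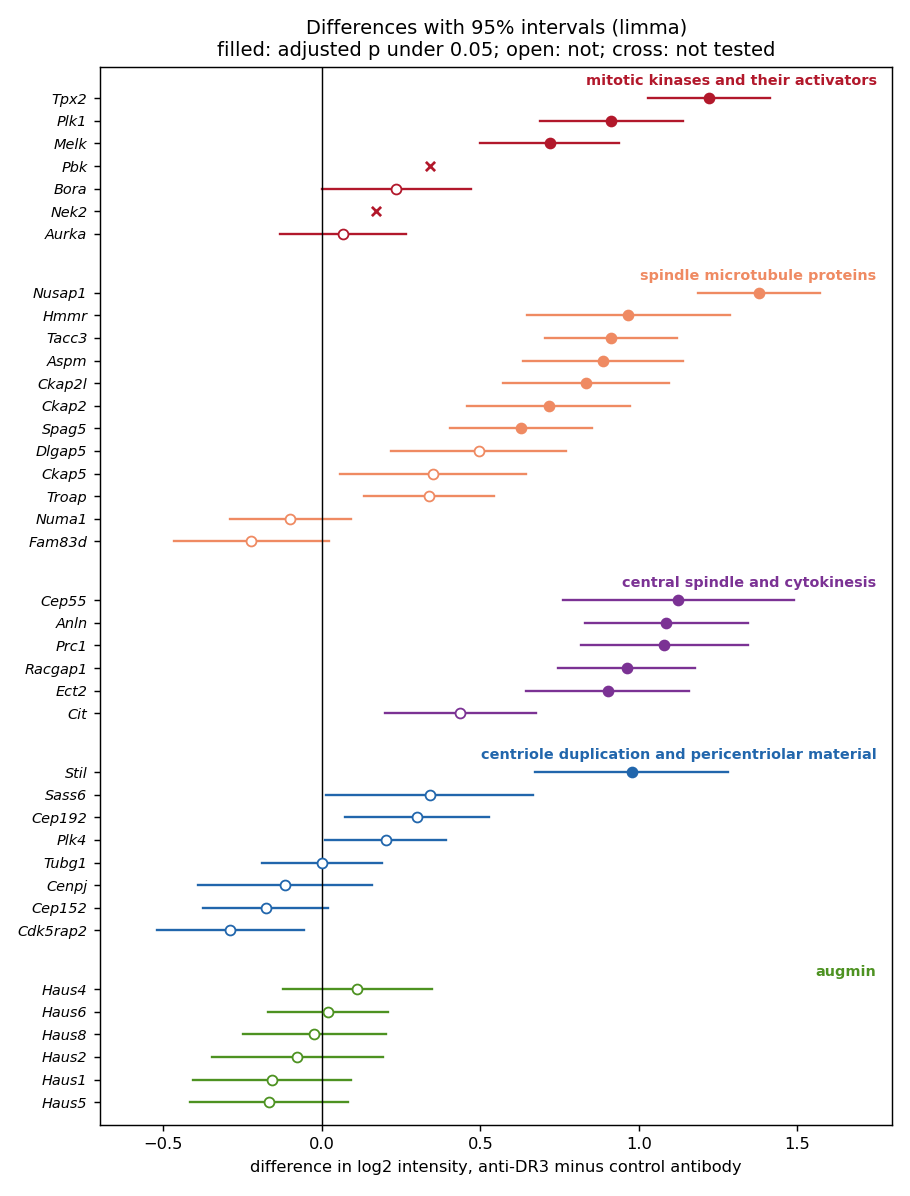
Difference in log2 intensity, anti-DR3 minus control antibody, with its 95% interval from limma, with 1 row per gene, grouped by role; filled points passed an adjusted p of 0.05, open points did not, and crosses mark the 2 genes that were not tested. The 16 filled points lie between 0.63 and 1.38, and the open points between -0.29 and 0.49.

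Of the 12 spindle microtubule genes 7 rose, 0 fell and 5 missed the threshold. Their median difference was 0.67, and 4 of the 12 were tested only through the anti-DR3 arrays. Nusap1, which bundles spindle microtubules around chromosomes, had log2 intensities of 5.90 and 5.88 on the anti-DR3 arrays and 4.48 and 4.54 on the control arrays. Both replicate pairs were tight, and the gap was the widest of the 37 genes. It rose 2.60-fold (1.38 ± 0.078, adjusted p = 0.00606, limma) and ranked 23 of 12114. Both control arrays were under the filter, so passing it nearly required a gap, and nothing is read from this width or rank.

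Tacc3, which crosslinks kinetochore fibre microtubules together with Ckap5 and clathrin, had log2 intensities of 6.61 and 6.64 on the anti-DR3 arrays and 5.65 and 5.77 on the control arrays. It rose 1.88-fold (0.91 ± 0.085, adjusted p = 0.0102, limma). Ckap5, its microtubule polymerase partner, differed by 0.35 ± 0.12 and did not pass (adjusted p = 0.137, limma), with a 95% interval from 0.06 to 0.64. Its control arrays, at 7.81 and 8.13, were the less alike, while the anti-DR3 arrays were at 8.33 and 8.32.

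Aspm, a spindle pole protein whose loss causes microcephaly, lay at 6.12 and 6.02 on the anti-DR3 arrays and at 5.30 and 5.08 on the control arrays. Ckap2l, a spindle protein related to Ckap2, lay at 5.35 and 5.42 against 4.43 and 4.68. Neither gene's groups overlapped, but both control pairs were under the filter, so passing it nearly required this. Aspm rose 1.85-fold and Ckap2l 1.78-fold (adjusted p = 0.0134 and 0.0166, limma). Ckap2l was tested by a narrow margin, since the filter stood at 5.33 and 5.34 on the anti-DR3 arrays.

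The other rises in this role were Hmmr, the hyaluronan receptor that also binds spindle microtubules (1.95-fold), Ckap2 (1.64-fold) and Spag5, a spindle and kinetochore protein (1.55-fold), with adjusted p between 0.0198 and 0.0242 in limma. Dlgap5, a stabilizer of kinetochore fibres, and Troap, a spindle assembly protein, differed by 0.49 and 0.34 and did not pass (adjusted p = 0.0616 and 0.0731, limma), although the groups of neither overlapped. Numa1, which anchors dynein at the poles and is a nuclear protein between divisions, had a difference of -0.10 (95% interval -0.29 to 0.09). Fam83d, which recruits casein kinase to the spindle, had a difference of -0.22 (-0.47 to 0.02). These were the only spindle microtubule genes with a difference below 0, and neither passed.

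Of the 6 genes of the central spindle and cytokinesis 5 rose and 0 fell, with a median difference of 1.02, the highest of the 5 roles, and 3 of the 6 were tested only through the anti-DR3 arrays. Racgap1, the GTPase-activating subunit of centralspindlin, had log2 intensities of 7.43 and 7.53 on the anti-DR3 arrays and 6.46 and 6.58 on the control arrays. It rose 1.95-fold (0.96 ± 0.088, adjusted p = 0.0102, limma). Ect2, the exchange factor that centralspindlin recruits to activate RhoA, lay at 7.05 and 7.17 against 6.10 and 6.31, and rose 1.87-fold (0.90 ± 0.105, adjusted p = 0.0134, limma). Both partners were above the filter on all 4 arrays, and their intervals overlap (0.75 to 1.18 and 0.64 to 1.16).

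Prc1, which bundles the antiparallel microtubules of the midzone, lay at 6.98 and 6.95 on the anti-DR3 arrays and at 6.01 and 5.76 on the control arrays. It rose 2.11-fold (1.08 ± 0.107, adjusted p = 0.0106, limma). Anln, the scaffold of the contractile ring, lay at 5.59 and 5.37 against 4.33 and 4.45, with both control arrays under the filter, and rose 2.12-fold (1.09 ± 0.104, adjusted p = 0.0104, limma). Cep55, which recruits the abscission machinery to the midbody, rose 2.18-fold (1.12 ± 0.149, adjusted p = 0.0187, limma), with the widest standard error of the 16 genes that rose. Cit, the midbody kinase citron, differed by 0.44 ± 0.097 and did not pass (adjusted p = 0.0586, limma). Its anti-DR3 arrays lay at 5.63 and 5.79 and its control arrays at 5.20 and 5.33. It passed the filter only through the anti-DR3 arrays, which nearly required such a separation, so nothing is read from it.

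Of the 8 genes of centriole duplication and the pericentriolar material 1 rose, 0 fell and 7 missed the threshold, and the median difference was 0.10. Stil, which joins Plk4 and Sass6 to start a new centriole, had log2 intensities of 6.50 and 6.32 on the anti-DR3 arrays and 5.29 and 5.57 on the control arrays. It rose 1.97-fold (0.98 ± 0.124, adjusted p = 0.0163, limma). Plk4, the kinase that sets centriole number, lay at 7.12 and 7.13 against 6.90 and 6.95. Its groups did not overlap, but the difference of 0.20 ± 0.078 did not pass (adjusted p = 0.173, limma), and its interval from 0.01 to 0.39 ends below that of Stil, from 0.67 to 1.28.

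Sass6, which builds the cartwheel of the new centriole, differed by 0.34 (95% interval 0.01 to 0.67, adjusted p = 0.177, limma). Cep192, a scaffold that recruits Plk4, Plk1 and Aurora A, lay at 8.69 and 8.84 on the anti-DR3 arrays and at 8.41 and 8.51 on the control arrays, a difference of 0.30 ± 0.092 (adjusted p = 0.113, limma). Cep152, the other Plk4 scaffold, had a difference of -0.18 (-0.38 to 0.02), with both anti-DR3 arrays below the control arrays. The scaffolds of Plk4 thus lay on different sides of 0, and neither passed.

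Cdk5rap2, which activates gamma-tubulin complexes in the pericentriolar material, lay at 7.09 and 7.01 on the anti-DR3 arrays and at 7.25 and 7.43 on the control arrays. Its difference of -0.29 ± 0.094 was the lowest of the 37 and did not pass (unadjusted p = 0.0223 and adjusted p = 0.126, limma). Cenpj, which controls centriole length, had a difference of -0.12, and its groups overlapped. Tubg1, the gamma-tubulin gene itself, lay at 6.999 and 6.959 on the anti-DR3 arrays and at 6.979 and 6.976 on the control arrays, with a difference of 0.00 (-0.19 to 0.19).

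None of the 6 measured augmin genes was called in limma, and 0 lay under an unadjusted p of 0.05. Augmin is a single complex that branches new microtubules from the sides of existing ones. Their differences ran from -0.17 (Haus5) to 0.11 (Haus4), with a median of -0.05. Haus5 lay at 6.31 and 6.23 on the anti-DR3 arrays and at 6.54 and 6.33 on the control arrays, and Haus1 at 5.77 and 5.91 against 6.09 and 5.91. Haus4 lay at 6.93 and 6.89 against 6.70 and 6.89, and Haus2 at 7.77 and 7.59 against 7.86 and 7.66.

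Haus7, an augmin subunit that is not among the 40 genes, lay at 5.55 and 5.54 on the anti-DR3 arrays and at 5.38 and 5.44 on the control arrays. Its groups did not overlap, and its difference of 0.13 ± 0.078 did not pass (adjusted p = 0.350, limma). The groups of the measured members overlapped for Haus1, Haus2, Haus4, Haus6 and Haus8, and those of Haus5 lay close together. The 95% intervals of the 6 genes reached at most 0.35 upwards, for Haus4, and -0.42 downwards, for Haus5. All of these intervals lie below those of the genes that rose, the lowest of which starts at 0.40 for Spag5. The differences of Haus6 and Haus8 were 0.02 and -0.02, and the sign of each turned under at least 1 alternative, as did those of Haus2, Cenpj and Tubg1.

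**Figure D3:**
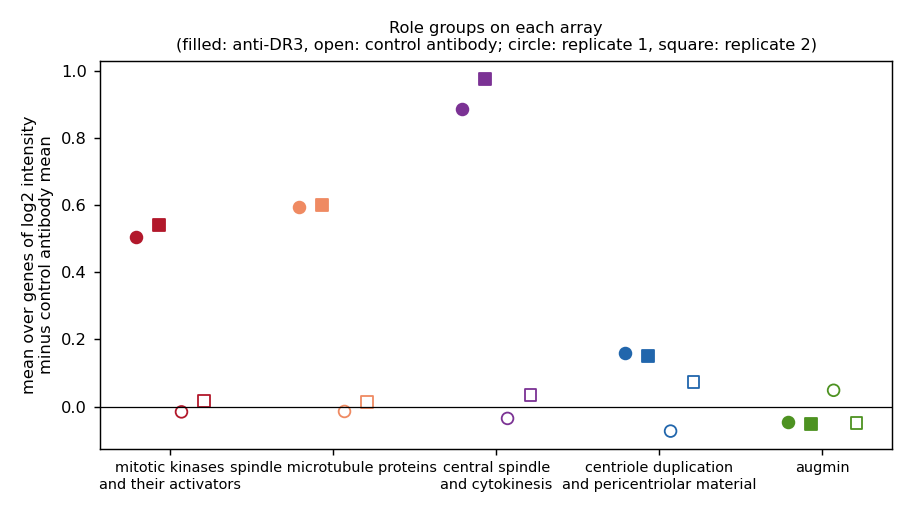
Mean over the measured genes of each role of the log2 intensity minus the gene's mean in the control arrays, on each array; filled symbols are anti-DR3, open symbols control antibody, circles replicate 1 and squares replicate 2. The central spindle and cytokinesis genes are at 0.89 and 0.98 after anti-DR3, and the augmin genes at -0.05 on both anti-DR3 arrays.

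Averaged over the genes of a role and set against their mean in the control arrays, the central spindle and cytokinesis genes stood at 0.89 and 0.98 on the anti-DR3 arrays. The spindle microtubule genes stood at 0.59 and 0.60, and the kinases at 0.51 and 0.54. The 8 centriole and pericentriolar genes stood at 0.16 and 0.15, with the control arrays at -0.07 and 0.07, and the 6 augmin genes at -0.05 and -0.05, with the control arrays at 0.05 and -0.05. For the first 3 roles the gap between groups was many times the distance between replicates, and for augmin 1 control array stood level with the anti-DR3 arrays. The control replicates were not alike for the members: 23 of the 37 genes (62.2%) were higher in replicate 2 than in replicate 1, against 47.6% of all genes tested. In the anti-DR3 group 16 of 37 (43.2%) were, against 49.3%.

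**Figure D4:**
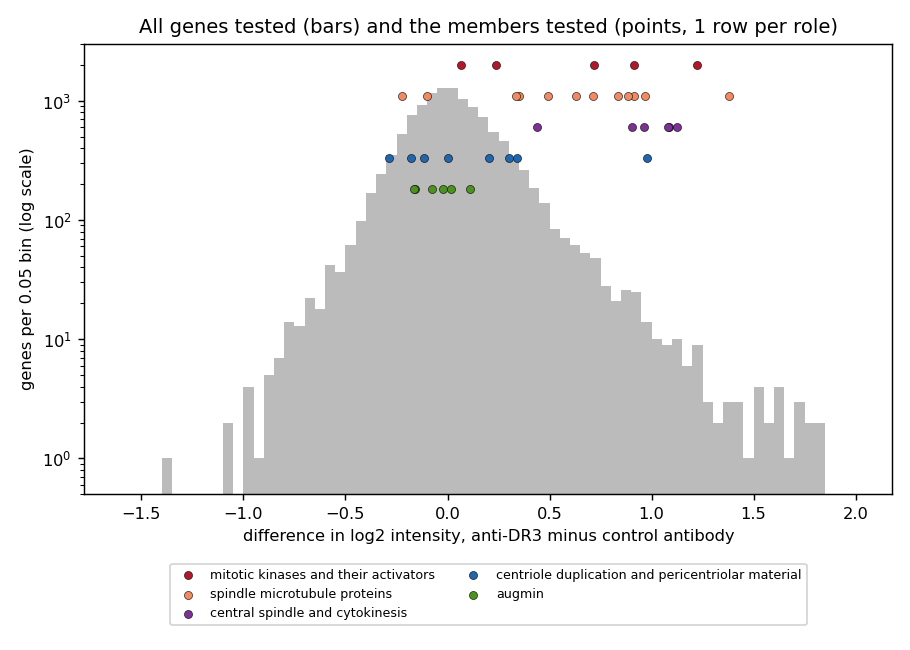
Histogram of the difference in log2 intensity, anti-DR3 minus control antibody, over the 12114 genes tested, in bins of 0.05 on a log count axis; the points are the 37 members tested, with 1 row per role, and the height of a row has no meaning. The central spindle and cytokinesis genes all lie in the upper tail, and the augmin genes in the centre. Of the former, Anln, Cep55 and Cit passed the filter only through the anti-DR3 arrays, so nothing is read from where these lie.

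Of the 16 genes that rose, 8 were among the 100 largest rises of the 12114 genes, and the lowest rank was 323 (Spag5). Nusap1, Cep55, Anln and Hmmr, which are among the 8, passed the filter only through the anti-DR3 arrays. Nothing is therefore read from the count of 8. Intensities had been normalized by the authors, and the median of the genes tested was still 0.06 higher on the log2 scale after anti-DR3. The median over all probe sets went the other way, at 5.33 and 5.34 after anti-DR3 against 5.38 and 5.39. The median of the differences over all genes tested was 0.01. With each array centred on its median over the genes tested, the split of calls over all genes moved from 544 higher and 178 lower to 348 and 243. The same 16 members were called. The median difference over the 37 members was then 0.29, and that over all genes tested was -0.05.

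Other genes of the same structures were counted for context, with 2 named per list by the size of the statistic, and Tubb4b besides. Of 13 tested spindle motors and chromosomal passenger genes 9 rose and 0 fell (median 0.72), against 4.49% called higher of all genes tested. Kif15, Kif4 and Kif14, which are 3 of the 9, passed the filter only through the anti-DR3 arrays and had to be higher to be tested, and of the other 10 genes 6 rose. The list was led by Kif11, the motor that pushes the poles apart (3.14-fold), and Kif23, the motor subunit of centralspindlin and partner of Racgap1 (1.89-fold; adjusted p = 0.00988 for both, limma). In the lists that follow, counts under an unadjusted p of 0.05 stand against 26.1% of all genes tested, and the highest share was 28.6%, in the abscission and cortex list. Among 11 genes of the gamma-tubulin ring and its anchors 0 were called (median 0.04), with 1 under an unadjusted p of 0.05, Tubgcp6, at -0.31 (adjusted p = 0.0816, limma), and Haus7 was next. Haus7 is an augmin subunit that was counted in this list, and without it the list held 10 tested genes, of which 0 were called (median 0.02). Among 20 genes of centriole and centrosome structure 0 were called (median -0.01), with 1 under an unadjusted p of 0.05, Cetn2, a centrin, at 0.33, and Ninl at -0.25 was next. Among 12 plus-end, cortical and tubulin genes 0 were called (median 0.08), with 3 under an unadjusted p of 0.05. Gpsm2, which orients the spindle, differed by 0.50 (adjusted p = 0.0519, limma) and the severing enzyme gene Katna1 by 0.34. Tubb4b, the last of the 3, was lower, at -0.52 (adjusted p = 0.126, limma). Among 14 abscission and cortex genes 0 were called (median 0.12), with 4 under an unadjusted p of 0.05, led by Arhgef2, a microtubule-bound exchange factor of RhoA (0.36), and Chmp4b, an ESCRT-III filament protein (0.27).

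**Figure D5:**
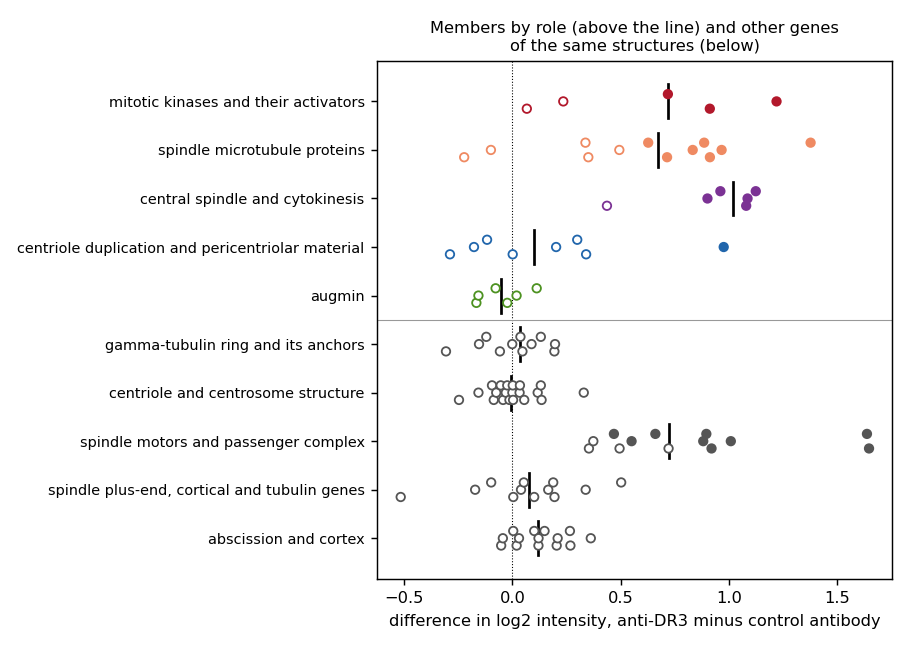
Difference in log2 intensity, anti-DR3 minus control antibody, for the tested genes of each role (coloured, above the line) and of 5 other lists (grey, below the line); filled points passed an adjusted p of 0.05 in limma and the black bar is the median. Filled points are found in 4 of the 5 roles and, among the other lists, in the motors and passenger complex.

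The arrays carried the markers of Treg: Foxp3 lay between 11.81 and 11.93 and Cd3e between 12.35 and 12.40 on the 4 arrays, and neither passed the test (differences of 0.06 and 0.02, adjusted p = 0.671 and 0.884, limma), while of the 6 Treg markers Ikzf2 rose and Il2ra fell. Of 21 markers of other cells that were measured, 8 were bright enough to be tested. Cd8b1, the 1 tested of 2 CD8 T cell markers, rose by 0.49, and of 4 monocyte and macrophage markers, all tested, Csf1r rose by 0.42. The 1 tested of 4 B cell markers (Cd79b), of 3 plasma cell markers (Xbp1) and of 3 dendritic cell markers (Itgax) were not called, and 0 of 2 natural killer cell and 0 of 3 neutrophil markers could be tested. The log2 of the summed intensities was 7.80 and 7.90 after anti-DR3 against 7.43 and 7.40 for CD8 T cells, and 8.16 and 8.32 against 7.83 and 8.03 for monocytes and macrophages. For B cells it was 7.50 and 7.52 against 7.41 and 7.38, for plasma cells 8.88 and 8.90 against 8.88 and 8.83, for dendritic cells 6.74 and 6.79 against 6.76 and 6.60, for natural killer cells 5.31 and 5.36 against 5.30 and 5.47, and for neutrophils 5.38 and 5.47 against 5.26 and 5.41. The 6 markers above the filter on all 4 arrays were Cd79b (6.35 to 6.74), Xbp1 (8.66 to 8.72), which is also active outside plasma cells, Cd8b1 (7.12 to 7.70), Lyz2, Csf1r and Cd68. The 12 under it on all 4 were Cd79a, Ms4a1, Jchain, Sdc1, Cd8a, Flt3, Siglech, Ncr1, Klrb1c, S100a8, S100a9 and Ly6g. The part of other cells in the rises of the spindle and cytokinesis genes was not tested.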

How the data were processed

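The authors deposited an intensity on a linear scale for each probe set, computed by robust multi-array average (RMA), as the submitters' processing notes state. Neither a software version nor a genome build is named in the sources used here. RMA brings all arrays to a common distribution, which can conceal a shift shared by all genes, and the number of arrays limits the precision. The log2 of each value was taken. Of 41345 probe sets, 23521 carried 1 symbol in the platform annotation, 1814 several and 16010 none listed. A gene was tested when it exceeded the array's median over all probe sets on 2 or more of the 4 arrays. The test was limma 3.58.1 in R 4.3.3 (lmFit, eBayes, two-sided), adjusted by Benjamini-Hochberg across all 12114 genes, at a threshold of 0.05. An exact permutation test of 2 arrays against 2 cannot go below p = 0.333. The code was tested on simulated data.

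Members, roles and lists were chosen with earlier results of these data known. Array values were printed for the 4 members of each role with the largest moderated statistic and for untested members, and a few others were added after their values were seen. Of each other list the 2 genes with the largest statistic were named, and Tubb4b was added after its value was seen. Alternatives covered a replicate block, each array left out, the filter, normalization, the variance model, the probe set and the threshold. Replicate differences correlated at 0.051 across genes between the groups, which with 2 pairs does not show whether numbers pair the arrays.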

Additional observations from a re-analysis of the deposited data

How the results depend on the processing

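The calls of 16 members rested on sharing the spread across genes and on all 4 arrays. Fits on 3 arrays, which take the spread of the lone array from the other group, called 0 to 13 members higher: 0 to 3 kinases, 0 to 5 spindle microtubule genes, 0 to 4 central spindle and cytokinesis genes and 0 to 1 centriole genes. Over all genes they called 0 to 245 higher and 0 to 67 lower, and the members' median difference ran from 0.36 to 0.51. No filter on dim genes, with 22180 genes in the fit, gave 14 genes higher and 0 lower and 2 members (1 kinase group gene, Tpx2, 1 spindle microtubule gene, Nusap1, and 0 central spindle and 0 centriole genes), with 23 of 39 members under an unadjusted p of 0.05, against 16.1% of all genes. An ordinary linear model gave 0 higher and 0 lower over all genes and 0 members in each role. In that model 18 of 37 members lay under an unadjusted p of 0.05, against 17.2% of all genes. Of these 37, 7 had passed the filter only through the anti-DR3 arrays, so nothing is read from that share. A trended robust prior gave 1082 higher and 362 lower and 18 members, with 2 centriole genes (Stil and Cep192). An adjusted p under 0.10 gave 1171 higher and 518 lower. Centring gave 348 higher and a members' median of 0.29. What caused these shifts was not tested. Signs turned for Tubg1 (-0.059 centred, -0.028 with quantile normalization, and -0.018 to 0.021 in fits on 3 arrays) and Haus6 (-0.041, -0.011 and -0.0053 to 0.044). In fits on 3 arrays they also turned for Haus8 (-0.086 to 0.038), Haus2 (-0.18 to 0.022) and Cenpj (-0.26 to 0.022). The replicate block gave 563 genes and the same 16 members, and it changed no member's call. Under 0 of the alternatives was a member called lower. Of the members' values under alternatives, 386 stayed on their side of the threshold with their sign, 72 lost and 7 gained the call, and 12 turned sign.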
